A study of Mus musculus with 4 samples.

Results

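Lymphoid priming is the low-level expression of lymphoid genes in multipotent progenitors before lineage commitment. The lymphoid priming genes described here were 10 genes: Flt3, Il7r, Dntt, Ccr9, Cd52, Rag1, Rag2, Notch1, Ikzf1 and Satb1. They were chosen by name, with earlier results of these data known. Every array probe whose gene name was 1 of these entered, each on its own: 18 probes for 10 of the 34650 gene names, out of 55681 probes.

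RNA was measured in LSK cells of the bone marrow (Lin-Sca-1+c-Kit+), a sorted fraction that holds stem cells and multipotent progenitors, on 1-colour Agilent mouse arrays with 1 array per genotype. Donor cells came from E14.5 fetal livers, and recipients were lethally irradiated mice; the strain label is C57B6 throughout. The groups were WT donor cells taken at 16 weeks after transplantation, Tet2 knock-down (TET2KD) at 10 weeks, a JAK2V617F transgene (an activated form of the Jak2 kinase) at 16 weeks, and the Double mutant with both alterations at 13 weeks. Each genotype had 5 mice per the design text. Whether the mice were pooled, how Tet2 was knocked down, which promoter drives the transgene and whether donor cells were separated from surviving recipient cells in the sort are not given in the sources used here. Only WT and JAK2V617F shared a time after transplantation, so in every other comparison genotype and time cannot be told apart. There was no replicate check, so "higher" and "lower" describe these arrays. In bulk RNA, fewer cells of a type and less RNA per cell cannot be told apart.

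In mouse bone marrow, a part of the LSK fraction that has lost megakaryocyte and erythroid potential raises the cytokine receptor Flt3 and starts to transcribe lymphoid genes. Dntt, Rag1 and Rag2 encode enzymes that later assemble and diversify antigen receptor genes. The receptors Il7r, Ccr9 and Notch1 serve the growth, homing and T-lineage commitment of early lymphoid cells, and the transcription factors Ikzf1 (Ikaros) and Satb1 act upstream in the programme.

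Probes are numbered 5′ to 3′ along each transcript, with coordinates in mm9 from the array files. Whether a probe lies in an exon, intron or UTR was not determined, since no mm9 annotation was used. The array oligos on which the results turn are given so that the transcript part each measured can be located, in lower case and 5′ to 3′, the first 30 bases except for Rag2, Notch1 and Ikzf1 probes shown whole at 60 bases.
Flt3 probe 1: cgtggatcttctctcaagcctcatttcctt
Flt3 probe 3: agatgctgtctgccattactccaaagtgac
Il7r probe 1: atcaatcaactatgtttggatccagggaat
Ccr9 probe 2: caggcaagaggcacttgctgcaggttctcc
Notch1 probe 1: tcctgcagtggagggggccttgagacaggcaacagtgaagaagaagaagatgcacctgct
Cd52 probe 1: gggaagggttgatagcagatatccaaggag
Dntt probe 1: aagcgcatcaatgcccacctgactcctgtg
Rag2 probe 1: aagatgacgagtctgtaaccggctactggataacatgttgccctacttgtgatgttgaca
Ikzf1 probe 2: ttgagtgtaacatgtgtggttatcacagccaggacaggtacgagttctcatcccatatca
Satb1 probe 1: caccggtatttcctaacaacatgagaagtc

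Levels below are log2 of the background-subtracted signal relative to the array's own 75th percentile, so 0 is that percentile, and levels are compared across arrays for 1 probe but not between probes. A probe not well above background has only an upper bound on that array, and a fold against it is a lower bound ("at least"), set by the dimmest signal that was well above background there. The only error the files hold comes from probes spotted repeatedly on an array, with a log2 SD of 0.15 to 0.16. Neighbouring arrays closer than 0.44 on the log2 scale are therefore called not separated. This spread leaves out RNA amplification, sorting and animals, so arrays called separated were not shown to differ by genotype.

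On every array 59305 non-control spots were read, no spot was saturated, and 49.3% (TET2KD) to 54.4% (JAK2V617F) of probes were well above background. The Tet2 signal was 27.3% of WT in TET2KD and 60.3% in the Double mutant by 1 probe, and 56.3% and 61.6% by another, while in JAK2V617F these probes stood at 73.1% and 105% of WT. The remaining Tet2 probe was well above background on the Double mutant array alone, where it was at least 2.36-fold over WT. The Jak2 signal was between 95.8% and 110% of WT in the 3 mutants. Kit and Ly6a, which define the sort, were well above background on all 4 arrays but not level: Kit was 1.29-fold, 2.39-fold and 3.52-fold below WT in TET2KD, JAK2V617F and the Double mutant, and Ly6a was 2.44-fold, 2.28-fold and 1.49-fold above WT. The part of these differences in the results on the lymphoid priming genes was not tested.

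**Figure D1:**
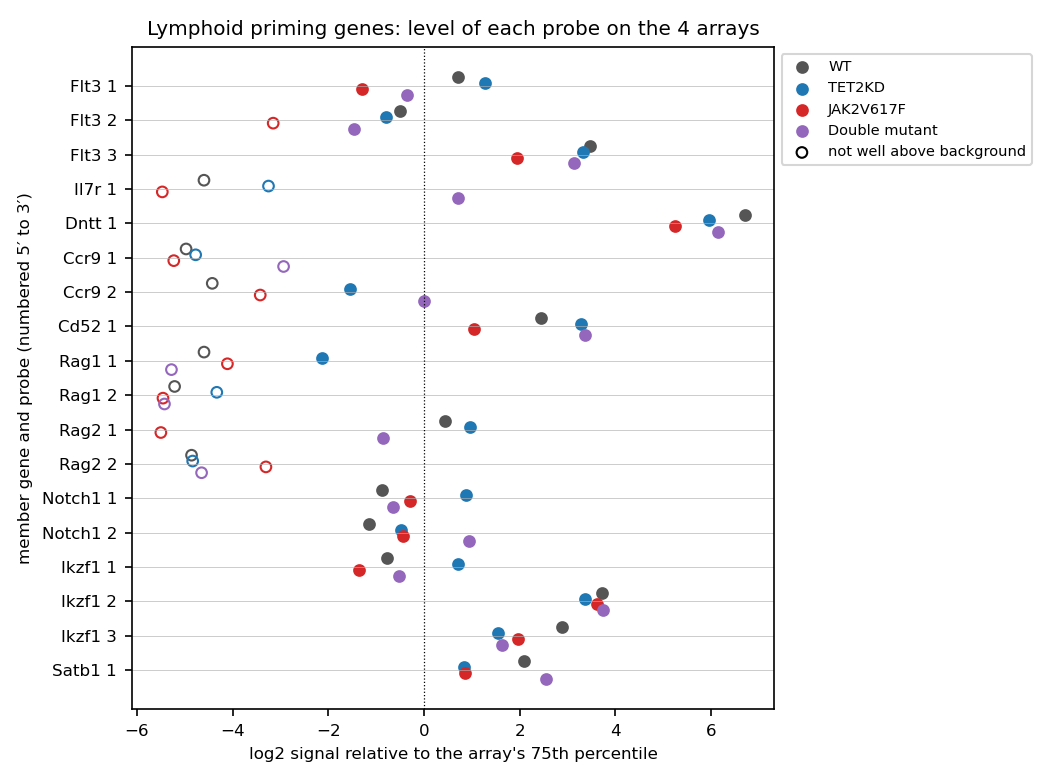
Level of each of the 18 probes (rows) on each array (colours), as log2 signal relative to the array's 75th percentile; open circles are not well above background. JAK2V617F is the lowest filled or open circle for each Flt3 probe, for Dntt and for Cd52, and the Double mutant is the only filled circle for Il7r.

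Flt3, the receptor tyrosine kinase that marks lymphoid-primed progenitors, was lowest in JAK2V617F by each of its 3 probes. Flt3 probe 1 (chr5:148178496-148178555, minus strand) read 0.70 for WT, 1.27 for TET2KD, -1.29 for JAK2V617F and -0.37 for the Double mutant on the log2 scale. Flt3 probe 3 (chr5:148142576-148142635, minus strand) read 3.46, 3.31, 1.94 and 3.13 in the same order. Flt3 probe 2 (chr5:148174133-148174192, minus strand), designed to a cDNA clone record, read -0.51, -0.80 and -1.46 in WT, TET2KD and the Double mutant and was not well above background in JAK2V617F. For probe 1 every array was separated from its neighbours in the order, by the spread of repeated spots only. For probe 3, WT, TET2KD and the Double mutant formed a chain of unseparated neighbours above JAK2V617F.

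In JAK2V617F, Flt3 was 4.00-fold lower than WT by probe 1, 2.87-fold lower by probe 3 and at least 6.26-fold lower by probe 2. The Double mutant lay 1.90-fold above JAK2V617F by probe 1, 2.29-fold by probe 3 and at least 3.24-fold by probe 2. Against WT, the Double mutant was 2.10-fold lower by probe 1, with 1.93-fold and 1.26-fold lower readings by probes 2 and 3. The probes, up to 35920 bases apart, had 1 sign in every comparison except TET2KD minus WT, where probe 1 was 1.48-fold higher and probes 2 and 3 were 1.23-fold and 1.11-fold lower. With normexp background correction, an alternative that shrinks differences of dim probes, 3 of these no longer reached 2-fold: probe 2 in JAK2V617F minus WT (-0.99 on the log2 scale) and Double mutant minus JAK2V617F (0.42), and probe 1 in Double mutant minus WT (-0.75).

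Il7r, the receptor chain for the lymphoid growth factor interleukin-7, was well above background in the Double mutant alone. The signal of its probe (chr15:9435976-9436035, minus strand) was 5.26 in WT, 12.6 in TET2KD and 2.94 in JAK2V617F, none well above background, and 235.1 in the Double mutant. The Double mutant was at least 13.2-fold above WT, at least 15.2-fold above JAK2V617F and at least 11.3-fold above TET2KD.

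Ccr9, the chemokine receptor that guides progenitors to the thymus, was well above background on both arrays that carry the Tet2 knock-down and on neither of the others. Ccr9 probe 2 (chr9:123690334-123690393, plus strand) had a signal of 40.9 in TET2KD and 143.6 in the Double mutant, against 5.93 in WT and 12.1 in JAK2V617F, where it was not well above background. TET2KD was at least 2.75-fold above WT, and the Double mutant was at least 8.06-fold above WT, at least 9.29-fold above JAK2V617F and 2.93-fold above TET2KD. With normexp the log2 difference was 0.45 in TET2KD minus WT and 0.72 in Double mutant minus TET2KD, both short of 2-fold. Ccr9 probe 1 (chr9:123680935-123680994, plus strand) was well above background on no array.

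Notch1, the receptor that drives T-lineage commitment, gave different orders by its probes, which lie 4810 bases apart. Notch1 probe 1 (chr2:26319440-26319499, minus strand) read -0.88 for WT, 0.87 for TET2KD, -0.29 for JAK2V617F and -0.65 for the Double mutant on the log2 scale. Notch1 probe 2 (chr2:26314630-26314689, minus strand) read -1.16, -0.47, -0.44 and 0.94 in the same order. Probe 1 was highest in TET2KD, at 3.37-fold over WT, and probe 2 was highest in the Double mutant, at 4.28-fold over WT. Between the Double mutant and TET2KD the probes had opposite signs, 2.86-fold lower by probe 1 and 2.67-fold higher by probe 2. WT was lowest by both probes, although by probe 1 it was not separated from the Double mutant. With normexp, probe 2 in Double mutant minus JAK2V617F, 2.60-fold higher here, fell just short of 2-fold at 0.98 on the log2 scale.

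Cd52, a short glycosylphosphatidylinositol-anchored surface protein of lymphocytes and their progenitors, was lowest in JAK2V617F. Its probe (chr4:133649505-133649564, minus strand) read 2.44 for WT, 3.27 for TET2KD, 1.04 for JAK2V617F and 3.37 for the Double mutant on the log2 scale. TET2KD and the Double mutant were not separated and lay highest. JAK2V617F was 2.64-fold below WT, and the Double mutant was 5.05-fold above JAK2V617F.

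Dntt, the polymerase that adds untemplated nucleotides at antigen receptor joints, was well above background on all 4 arrays. Its probe (chr19:41133936-41133995, plus strand) read 6.71 for WT, 5.96 for TET2KD, 5.26 for JAK2V617F and 6.15 for the Double mutant on the log2 scale. WT was highest and JAK2V617F lowest, 2.74-fold below WT, and TET2KD and the Double mutant were not separated. Their own differences from WT, 1.68-fold and 1.47-fold lower, did not reach 2-fold.

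Rag2, the accessory subunit of the recombinase, was well above background on every array except JAK2V617F. Rag2 probe 1 (chr2:101470723-101470782, plus strand) had a signal of 172 in WT, 231.8 in TET2KD and 79.5 in the Double mutant, and of 2.88 in JAK2V617F, not well above background. JAK2V617F was at least 12.5-fold below WT, the Double mutant was 2.43-fold below WT and 3.50-fold below TET2KD, and the Double mutant was at least 5.14-fold above JAK2V617F. With normexp, Double mutant minus WT (-0.86 on the log2 scale) and Double mutant minus JAK2V617F (0.97) no longer reached 2-fold. Rag2 probe 2 (chr2:101472445-101472504, plus strand), printed as 10 spots and lying 1722 bases further on, was well above background on no array.

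Rag1, the catalytic subunit of the recombinase, was at or near background throughout. Rag1 probe 1 (chr2:101481051-101481110, minus strand) was well above background only in TET2KD, at a log2 level of -2.13. This was at least 1.84-fold above WT and at least 2.36-fold above the Double mutant, the latter short of 2-fold with normexp (-0.41 for Double mutant minus TET2KD on the log2 scale). Rag1 probe 2 (chr2:101478813-101478872, minus strand) was well above background on no array.

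Ikzf1 encodes Ikaros, a zinc-finger regulator needed for lymphoid priming, and its 3 probes gave 3 patterns. Ikzf1 probe 2 (chr11:11669493-11669552, plus strand) read 3.72 for WT, 3.37 for TET2KD, 3.61 for JAK2V617F and 3.74 for the Double mutant on the log2 scale, with no neighbouring arrays separated and a range of 1.30-fold. Ikzf1 probe 1 (chr11:11661344-11661403, plus strand) read -0.78, 0.72, -1.36 and -0.53 in the same order. Ikzf1 probe 3 (chr11:11672828-11672887, plus strand) read 2.89, 1.55, 1.97 and 1.63. TET2KD was thus 2.81-fold above WT by probe 1 and 2.54-fold below WT by probe 3, with probe 2 at 1.28-fold lower. The Double mutant was 2.40-fold below WT by probe 3 and 1.01-fold above it by probe 2. Between probes 1 and 3 the sign was shared only in JAK2V617F minus WT, 1.5-fold and 1.89-fold lower. With normexp, probe 1 no longer reached 2-fold in TET2KD minus WT (0.96 on the log2 scale) or Double mutant minus TET2KD (-0.85).

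Satb1, a chromatin organiser that promotes lymphoid fate, was lower in each single mutant than in WT or the Double mutant. Its probe (chr17:51879137-51879196, minus strand) read 2.10 for WT, 0.83 for TET2KD, 0.86 for JAK2V617F and 2.55 for the Double mutant on the log2 scale. The single mutants were not separated from each other, and were 2.41-fold and 2.35-fold below WT. The Double mutant was 3.22-fold above JAK2V617F, 3.30-fold above TET2KD and 1.37-fold above WT.

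**Figure D2:**
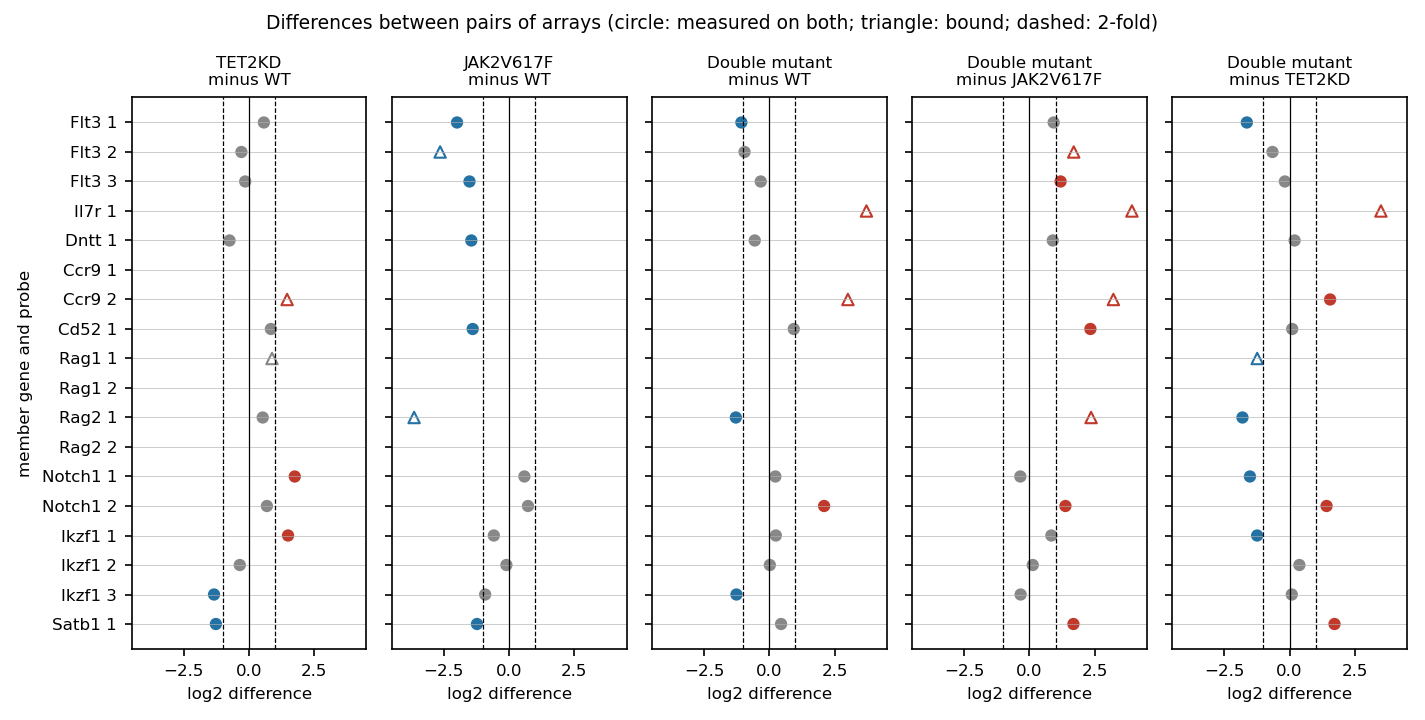
Log2 difference of each probe (rows) in each comparison (panels), with circles for probes measured on both arrays, triangles for lower bounds, dashed lines at 2-fold, red for higher and blue for lower. No member probe lies past 2-fold above WT in JAK2V617F, and none lies past 2-fold below JAK2V617F in the Double mutant.

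Counted over the member probes, JAK2V617F minus WT and Double mutant minus JAK2V617F were the one-sided comparisons. They share the JAK2V617F array, so the same low JAK2V617F readings enter both. The members were chosen with earlier results of these data known, so the shares over all probes are a description beside the counts and not a test. In JAK2V617F minus WT, 0 of 12 compared probes were at least 2-fold higher (16.1% of all compared probes) and 7 were lower (16.4%), with a median log2 difference of -1.32 against -0.01 over all compared probes. Among the 10 probes well above background on both arrays, 0 were higher (12.7%) and 5 lower (13.5%), with a median of -1.08. The 7 lower probes were Flt3 probes 1, 2 and 3, Dntt, Cd52, Rag2 probe 1 and Satb1. The 12 compared probes came from 7 genes, so Flt3 alone counted 3 times.

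In Double mutant minus JAK2V617F, 8 of 14 compared probes were at least 2-fold higher (13.4% of all) and 0 lower (14.4%), with a median of 1.29 on the log2 scale against -0.02 over all probes. A probe measured on only the brighter array had to differ, so the 10 probes measured on both are the firmer base: 4 were higher (10.3%) and 0 lower (10.6%), with a median of 0.91. With normexp, 5 of 14 were past 2-fold higher. The 4 higher probes measured on both arrays were Flt3 probe 3, Cd52, Notch1 probe 2 and Satb1. The 4 bounds were Flt3 probe 2, Il7r, Ccr9 probe 2 and Rag2 probe 1. The 14 compared probes came from 9 genes, so Flt3 counted more than once here too.

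The other comparisons were divided. In TET2KD minus WT, 3 of 14 probes were higher (17.6% of all) and 2 lower (17%), with a median of 0.54. Of 12 measured on both arrays, 2 were higher (13.7%) and 2 lower (13.6%), with a median of 0.19. Their shares were near those of all probes. In Double mutant minus WT, 3 of 14 were higher (16.3%) and 3 lower (17.5%), with a median of 0.13. Of 12 measured on both, 1 was higher (12.6%) and 3 lower (13.7%), and the median was -0.155, of the other sign. In Double mutant minus TET2KD, 4 of 15 were higher (15.6%) and 5 lower (17.6%), with a median of 0.08. Of 13 measured on both, 3 were higher (12.3%) and 4 lower (13.7%), also with a median of 0.08.

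Over the 10 member probes well above background on all 4 arrays, JAK2V617F was the lowest array for 5 and the highest for 0, where over all 22096 such probes it was lowest for 25.2% and highest for 23.1%. The Double mutant was lowest for 0 and highest for 4 (23.5% and 21.2% of all). TET2KD was lowest for 3 and highest for 3 (26% and 27.8% of all). WT was lowest for 2 and highest for 3 (25.3% and 27.8% of all). The 5 probes lowest in JAK2V617F were Flt3 probes 1 and 3, Dntt, Cd52 and Ikzf1 probe 1. The order of the 4 arrays that each of these member probes showed was held by 2.94% to 5.40% of all such probes.

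The Tet2 knock-down and JAK2V617F differences of these 10 probes were also read with and without the other alteration. The departure from additivity, the Double mutant minus both single mutants plus WT, was 2.96 for Satb1, 1.64 for Dntt, 1.5 for Cd52, 1.34 for Flt3 probe 3 and 1.01 for Ikzf1 probe 3 on the log2 scale. It was -2.10 for Notch1 probe 1 and between -0.65 and 0.70 for the other 4. With 1 array per genotype these departures have no error of their own and were not tested.

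**Figure D3:**
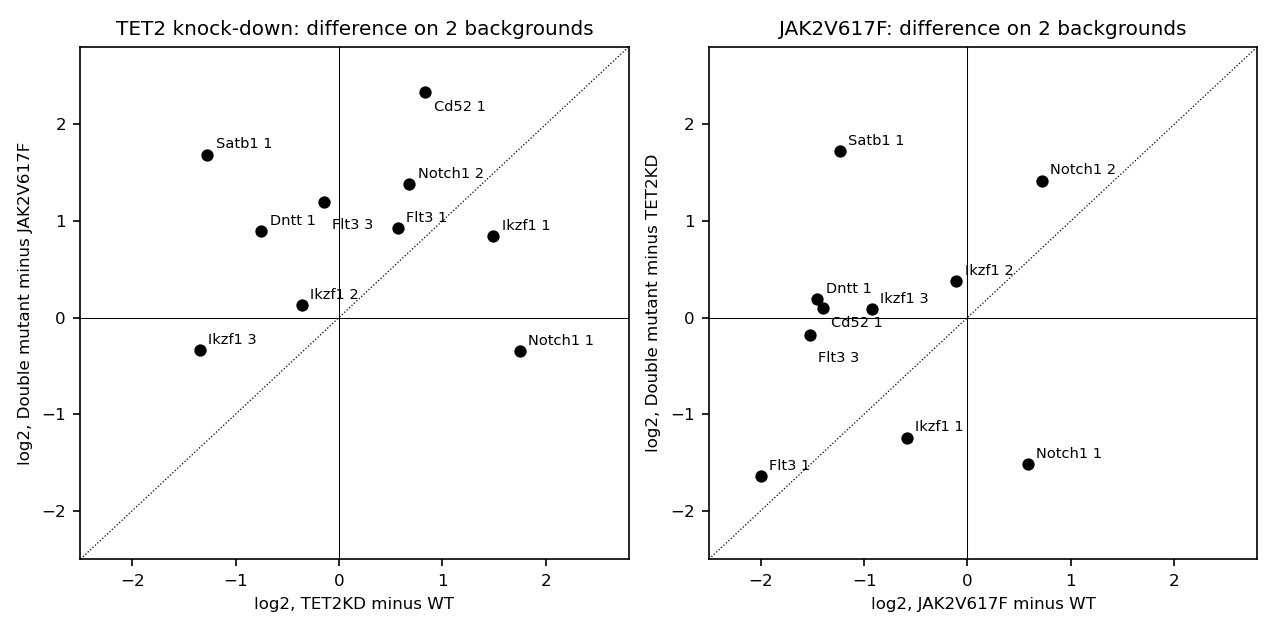
Each point is 1 of the 10 member probes well above background on all 4 arrays: left, the log2 difference with Tet2 knock-down on the WT (horizontal) and JAK2V617F (vertical) backgrounds; right, that with JAK2V617F on the WT and TET2KD backgrounds. The dotted line is equality; Satb1 lies at -1.27 and 1.69 on the left and at -1.24 and 1.72 on the right.

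A limma fit of additive Tet2 knock-down and JAK2V617F effects over the 4 arrays, with Benjamini-Hochberg adjustment over 37223 probes, was the only test the design allowed. Its 1 residual degree of freedom per probe is the departure from additivity and not a replicate spread. It called 0 probes (0%) for either effect; 1877 (5.04%) and 2308 (6.2%) had an unadjusted p under 0.05 for Tet2 knock-down and JAK2V617F, and the smallest adjusted p was 0.901 and 0.802. Among members, the effects with an unadjusted p under 0.05 were Ccr9 probe 2 with Tet2 knock-down (log2 difference 3.15, SE 0.50, limma adjusted p = 0.901) and Flt3 probe 1 with JAK2V617F (log2 difference -1.82, SE 0.48, limma adjusted p = 0.802). The Ccr9 estimate used readings that were not well above background on 2 of the 4 arrays.

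The genes around the members are described from lists, each gene by its brightest probe. Medians here are of log2 differences, and the median over all genes lay between -0.05 and 0.02 in each comparison. The shares past 2-fold over all genes were 16.5% higher and 18.5% lower in TET2KD minus WT, 16.3% and 16.4% in JAK2V617F minus WT, and 16% and 18% in Double mutant minus WT. They were 12.6% higher and 14.2% lower in Double mutant minus JAK2V617F, and 16.6% and 16.4% in Double mutant minus TET2KD.

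Among Flt3 pathway genes, JAK2V617F minus WT had 0 of 10 higher and 0 lower (median -0.30), while Flt3 itself was lower. Flt3l, the ligand of Flt3, had a signal of 48.9 for WT, 999 for TET2KD, 72.1 for JAK2V617F and 102 for the Double mutant, so TET2KD was 21.8-fold above WT and the Double mutant 11.7-fold below TET2KD. Among interleukin-7 receptor pathway genes, TET2KD minus WT had 2 of 13 higher and 4 lower (median -0.64). The feedback regulators Socs3 and Cish were 3.84-fold and 3.44-fold lower there, and Stat5a, which carries the receptor's signal, was 2.71-fold higher. The other higher gene was Socs2, also a feedback regulator, at least 2.39-fold above WT. In Double mutant minus WT, where Il7r was at least 13.2-fold higher, 2 of 14 pathway genes were higher and 3 lower (median -0.01), with the receptor kinases Jak1 and Jak3 3.78-fold and 3.55-fold lower. The higher genes were the feedback regulators Socs2, at least 22.2-fold, and Socs1, at least 2.93-fold; Socs2 was also at least 34.1-fold above WT in JAK2V617F, where Il7r was not well above background.

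Of the Notch pathway genes, 9 of 15 were higher and 4 lower in TET2KD minus WT (median 1.21, or 0.54 over the 10 measured on both arrays). Notch4, a receptor, was 3.68-fold higher, the coactivator Maml1 3.51-fold higher and Adam10, the protease that cleaves the receptor, 3.30-fold lower. In Double mutant minus WT 6 of 16 were higher and 2 lower (median 0.42, or -0.17 over the 9 measured on both). Rbpj, the DNA-binding partner of activated Notch, was higher than in WT in all 3 mutants: 3.0-fold in TET2KD, 7.63-fold in JAK2V617F and 4.8-fold in the Double mutant.

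Lymphoid commitment factors were divided: 2 of 17 were higher and 6 lower in TET2KD minus WT, 3 of 16 and 5 in JAK2V617F minus WT, and 2 of 16 and 3 in Double mutant minus WT. Ets1, a lymphoid transcription factor, was 7.66-fold, 15.6-fold and 12.0-fold below WT in TET2KD, JAK2V617F and the Double mutant. In Double mutant minus JAK2V617F 4 of 17 were higher and 4 lower, with Mef2c 2.56-fold higher and the B-lineage factor Pax5 2.99-fold lower. Of the partners of V(D)J recombination, which repair or assist the cuts made by Rag1 and Rag2, 2 of 9 were higher and 4 lower in JAK2V617F minus WT. There the end-joining factor Nhej1 was 11.4-fold lower, the kinase Prkdc 4.26-fold lower and Xrcc5 6.80-fold higher. The WT signal of Xrcc5 was 25.6, near the dimmest signal well above background on that array, 15.8. Nhej1 was also below WT in TET2KD, at least 23.5-fold, and in the Double mutant, 7.83-fold. Prkdc was 3.72-fold below WT in TET2KD and 1.43-fold below it in the Double mutant.

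Among lymphoid progenitor surface and signalling genes, 4 of 15 were higher and 1 lower in JAK2V617F minus WT (median 0.30), the comparison in which no member probe was at least 2-fold higher. Irf8, a regulator of dendritic and B cells, was 3.77-fold higher there and 7.90-fold higher in the Double mutant than in WT. Of the Ikaros and SATB partners, 0 of 10 were lower in each of the 5 comparisons and 1 or 2 were higher, with the corepressor Sin3a 4.49-fold above WT in the Double mutant.

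**Figure D4:**
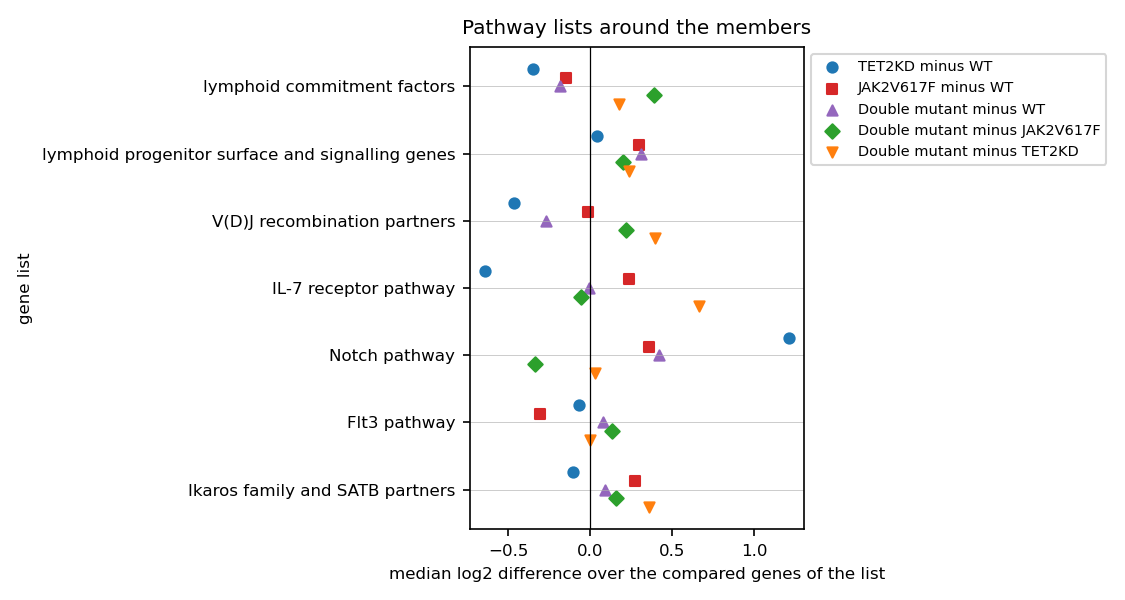
Median log2 difference over the compared genes of each list (rows) in each comparison (colours and shapes), each gene by its brightest probe. Among these 7 pathway lists and at this setting the Notch pathway in TET2KD minus WT lies farthest from 0, at 1.21; with normexp it was 0.51 and the interleukin-7 receptor pathway -0.60.

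Markers of mature cells were read beside these results, and their part in them was not tested. Of the mature B cell markers, 7, 6, 6 and 5 of 11 were well above background in WT, TET2KD, JAK2V617F and the Double mutant, with a summed level of 50.6, 34.5, 26.6 and 27.5 times the array's 75th percentile. The largest part of the fall from WT came from Cd79a alone, with signals of 2105, 62.8, 59.2 and 36.3 in the same order. Cd22, the brightest gene of the list, was within 1.2-fold of WT in each mutant. The list also holds Vpreb1 and Igll1, surrogate light chain genes of pre-B cells. The lists were mixed in detection. The B cell marker Ms4a1 and the T cell markers Cd3d, Cd3g and Cd8a were well above background on no array, while the B cell markers Cd22, Cr2 and Fcer2a and the T cell markers Cd3e, Cd4, Lck and Cd247 were well above background on all 4. Mature T and NK cell markers summed to 41.9, 23.2, 34.5 and 36.0 in the same order, with 7, 5, 7 and 7 of 13 well above background. Most of this came from Nkg7 alone, and without Nkg7 the sums were 11.61, 8.106, 9.455 and 9.63. Dendritic cell markers, a list that holds Flt3, summed to 69, 87.6, 53.6 and 74.3, with 7, 7, 6 and 7 of 9 well above background. Without Siglech, the brightest gene of that list, the sums were 30.2, 44.2, 20.6 and 41.9.

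Stem and multipotent progenitor markers, 9 of 10 of them well above background on each array, summed to 111.7 for WT, 86.5 for TET2KD, 75 for JAK2V617F and 48.5 for the Double mutant; Slamf1 was well above background on no array. Granulocyte and monocyte markers, with 13, 13, 12 and 13 of 13 well above background, summed to 464.9, 590, 513.7 and 575.5 in the same order, most of it from Itgam alone; without Itgam the sums were 122.6, 195.7, 197.1 and 268.5. Of these 13 genes, 7 were higher and 0 lower than WT in TET2KD (median 1.10), 4 and 3 in JAK2V617F (median 0.14), and 7 and 0 in the Double mutant (median 1.28). The granule proteases Ctsg and Elane were above WT in all 3 mutants. Ctsg was 3.67-fold, 9.8-fold and 12.1-fold higher in TET2KD, JAK2V617F and the Double mutant, and Elane 6.27-fold, 4.8-fold and 5.7-fold. Erythroid and megakaryocyte markers summed to 8.61, 31.2, 11.0 and 14.8, with 6, 7, 9 and 9 of 10 well above background. In TET2KD minus WT, 5 of the 7 compared genes of this list were higher and 1 lower. Hba-a1 had a signal of 2097 in TET2KD and 147.8 in WT, and the lower gene, Gata1, was 25.8-fold below WT.

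The 250 bases before the start site are shown for Il7r, Ccr9 and Flt3, the receptors with the bounds or the repeated low reading above (RefSeq, GRCm38.p6, 5′ to 3′ on the gene's strand). Capitals mark matches to the motifs CAGCTG (an E-box), TGGGAA (the Ikaros core), TTCNNNGAA (STAT) and AGGAAG (ETS), each searched on both strands and on its own, whether or not it overlapped another.
Il7r, chr15:9529877-9530126, minus strand: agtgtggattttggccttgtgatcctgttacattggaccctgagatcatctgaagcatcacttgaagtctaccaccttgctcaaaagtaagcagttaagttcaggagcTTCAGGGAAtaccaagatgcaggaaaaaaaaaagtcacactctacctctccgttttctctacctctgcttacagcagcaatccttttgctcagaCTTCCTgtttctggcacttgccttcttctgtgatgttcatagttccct
Ccr9, chr9:123766961-123767210, plus strand: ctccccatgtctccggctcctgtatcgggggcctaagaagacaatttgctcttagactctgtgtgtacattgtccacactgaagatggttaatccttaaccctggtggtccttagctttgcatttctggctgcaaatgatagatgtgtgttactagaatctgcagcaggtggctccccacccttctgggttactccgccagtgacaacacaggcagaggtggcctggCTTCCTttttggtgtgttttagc
Flt3, chr5:147400490-147400739, minus strand: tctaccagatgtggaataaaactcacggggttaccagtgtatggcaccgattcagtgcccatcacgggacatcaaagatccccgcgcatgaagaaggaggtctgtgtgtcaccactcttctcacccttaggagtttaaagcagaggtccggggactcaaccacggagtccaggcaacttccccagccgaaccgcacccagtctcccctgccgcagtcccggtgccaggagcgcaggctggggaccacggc
Il7r had a STAT match 142 bases and an ETS match 48 bases before the start, Ccr9 an ETS match 23 bases before it, and Flt3 no match in this window. Promoters were matched for 9 of the 10 genes (14 promoters), all but Cd52. Of these 14 promoters, 2 held CAGCTG (14.3%), 2 TGGGAA (14.3%), 1 TTCNNNGAA (7.14%) and 5 AGGAAG (35.7%). Over 32851 promoters of the same length the shares were 13%, 21.6%, 7.02% and 29.5%. These matches are descriptions of the letters and not binding sites.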

How the data were processed

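The deposited intensity values are Agilent Feature Extraction 10.7.3.1 processed signals, background-subtracted by the authors' scanner software and not scaled between arrays, per the file headers; probe coordinates are mm9. The deposited series matrix holds log2 values: every column was the log2 processed signal shifted by 1 constant (0 one-spot probes off by more than 0.001), without centring of genes. The medians of its columns were -2.64, -2.63, -2.60 and -2.60 in WT, TET2KD, JAK2V617F and the Double mutant. Trizol RNA was amplified with NuGEN's Ovation Pico WTA V2 and labelled with Cy3, per the labels' protocols.

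From each log2 signal the array's 75th percentile, taken without control spots, was subtracted (signals of 128, 120, 130.3 and 144). Outlier spots (162 to 199 per array) were dropped and spots of 1 probe averaged. A probe was compared where well above background on at least 1 of 2 arrays; the other side was set to the higher of its own signal and the array's dimmest signal well above background (14 to 17.3). The threshold was 2-fold. Symbols of 22494 gene names were matched to RefSeq. The number of arrays, 4, limits the precision. Analyses used limma 3.58.1 in R 4.3.3 and Python 3.11.15, and were tested on simulated data.

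All members were named, with Tet2 and Jak2. From each list, up to 3 genes each way per comparison were eligible, those with the largest difference among genes above background on both arrays and past 2-fold; Flt3l, Ets1, Irf8 and others named come from these. Kit, Ly6a, Slamf1 and other cell type markers were named as defining markers. Socs1, Socs2, Itgam, Igll1, Cr2, Fcer2a and the markers above background on all arrays were chosen after their values were seen. The members and lists were chosen with earlier results of these data known. The 8 alternatives were normexp, quantile, median-of-detected and cyclic loess scaling, the series matrix, above background on both arrays, no filter, and a 3-fold threshold. For the lists only, a further setting took the mean of all compared probes of a gene in place of its brightest probe.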

Additional observations from a re-analysis of the deposited data

Results flagged for a closer look

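Satb1 drew attention because the differences of its probe with each alteration had opposite signs on different backgrounds. With Tet2 knock-down its log2 difference was -1.27 on the WT background and 1.69 on the JAK2V617F background. With JAK2V617F it was -1.24 on the WT background and 1.72 on the TET2KD background. These 4 values come from the same 4 arrays, 1 per genotype, and the difference between backgrounds was not tested. For both alterations that difference is the same departure from additivity, 2.96. Only WT and JAK2V617F shared a time after transplantation, so genotype and time cannot be told apart in the other differences. No group had enough arrays to look for an array far from the others.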

How the results depend on the processing

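No paired analysis was possible because each genotype had 1 array and the labels carry no replicate numbers; for the same reason no array could be left out. Of 80 counts of member probes over the alternatives, 65 stayed within 1.5 times and none reversed; quantile, median-of-detected and cyclic loess scaling and the series matrix kept all 10 counts within that range. With normexp, 1 probe was higher in TET2KD minus WT, 1 lower in Double mutant minus WT, 5 higher in Double mutant minus JAK2V617F and 3 lower in Double mutant minus TET2KD. Over probes above background on both arrays, 1 was higher in Double mutant minus WT and 4 in Double mutant minus JAK2V617F. With no filter and no floor, 5 were higher in TET2KD minus WT, 2 higher in JAK2V617F minus WT and 2 lower in Double mutant minus JAK2V617F. At 3-fold, 1 was higher and 0 lower in TET2KD minus WT, 3 lower in JAK2V617F minus WT, 0 lower in Double mutant minus WT, and 2 higher and 2 lower in Double mutant minus TET2KD. Normexp, which adds an offset of 50 and so shrinks dim differences, took the probes past 2-fold from 5658 higher and 5462 lower to 2250 and 2482 in TET2KD minus WT, from 5423 and 5509 to 2171 and 2176 in JAK2V617F minus WT, from 5470 and 5878 to 2093 and 2387 in Double mutant minus WT, from 4560 and 4905 to 1411 and 1609 in Double mutant minus JAK2V617F, and from 5134 and 5783 to 2068 and 2253 in Double mutant minus TET2KD. Over the 5 comparisons and both directions, counts of 4560 to 5878 became 2719 to 3447 above background on both arrays, 2227 to 3288 at 3-fold and 7921 to 9760 with no filter and no floor. That last setting also shifted the median of all probes, to between -0.23 and 0.17 on the log2 scale. Of 681 single-probe values, 644 stayed on their side of the threshold, 35 no longer reached it and 2 newly did. Of the 35, 14 fell short of 2-fold with normexp, and 21 kept their value past 2-fold but were short of 3-fold. The 2 new ones were both Rag1 probe 1 in TET2KD minus WT. With normexp Ccr9 probe 2 in TET2KD minus WT gave 0.45 and Flt3 probe 2 in JAK2V617F minus WT gave -0.99 on the log2 scale. Of 630 list medians, 565 stayed close to the main value and 65 moved. The Notch pathway in TET2KD minus WT, from 1.21 to 0.51 with normexp, was among those that moved. The mean of all compared probes of a gene moved 13. The smallest adjusted p of the additive limma fit was 0.893 to 0.958 for Tet2 knock-down and 0.67 to 0.805 for JAK2V617F over the scalings.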

Other observations

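B-lineage genes outside the members differed between arrays in more than 1 direction. Cd79a, a signalling chain of the B cell receptor, had a signal of 2105 for WT, 62.8 for TET2KD, 59.2 for JAK2V617F and 36.3 for the Double mutant. Vpreb1, a surrogate light chain of pre-B cells, had 492.8 in WT and 31.9 in JAK2V617F, and was not well above background in TET2KD or the Double mutant. Both were highest in WT. Igll1, the other surrogate light chain component, was well above background only in TET2KD, at a signal of 139.7. Pax5 was highest in JAK2V617F, 4.06-fold above WT. Cr2 and Fcer2a, markers of mature B cells, were within 1.36-fold and 1.31-fold of WT in the 3 mutants.

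Igj, the joining chain of plasma cell antibodies, had a signal of 87.7 for WT, 554.5 for TET2KD, 40.4 for JAK2V617F and 459.9 for the Double mutant, higher on both arrays with the Tet2 knock-down. Plasma cell markers well above background numbered 3, 6, 4 and 6 of 6 in the same order.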
